A study of Danio rerio with 24 samples.

Results

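Primordial germ cells (PGCs), the embryonic cells that later give rise to eggs and sperm, were compared between 2 stages of normal zebrafish development. The 3 libraries at 1 day post-fertilization (1 dpf) and the 3 at 75% epiboly were the control libraries of a series with 24 samples, chosen by their labels, and genes were joined by gene ID. All 6 came from embryos of genotype WT in Holtfreter's water that carried a transgene marking the PGCs with a fluorescent protein. The promoter of this transgene is not given in the sources used here. The PGCs were sorted by flow cytometry, their mRNA was amplified as full-length cDNA, and libraries were made by a transposase reaction. The labels name no separate clutches or sorts, so each p-value below measures the spread between these libraries only. The rest of the series concerned loss of smad1, by a conditional knockout (cKO) or a morpholino. Its control-MO libraries (PGCs from embryos given a control morpholino, 2 per stage) offered a second, separate measure of the stage difference. Germ cell markers were lower in these libraries, as given below.

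Zebrafish PGCs are set aside by inheriting germ plasm, a maternal store of RNA and protein that holds transcripts such as nanos3, ddx4 and dnd1. While the rest of the gastrula takes up somatic fates, PGCs migrate singly along a Cxcl12 chemokine trail, and during the first day they gather at the site of the future gonad. Germ plasm proteins repress or protect particular mRNAs, and the same microRNAs that clear maternal transcripts from somatic cells are counteracted in PGCs by Dnd1.

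Levels are in TPM, a unit that gives each gene's share of the transcripts in a library after correction for transcript length. Read depth cannot be recovered from it. The libraries had 22212, 21918 and 21330 genes above 0 TPM at 1 dpf, against 16245, 14932 and 15819 genes at 75% epiboly. Germ cell identity was checked with 7 markers (nanos3, ddx4, dnd1, dazl, piwil1, ca15b and tdrd7a). Their summed level was 19048, 14701 and 14801 TPM at 1 dpf, against 15874, 21335 and 4106 TPM at 75% epiboly, so 75% epiboly replicate 3 stood below the other 5 libraries. That library also held 701 TPM of aplnrb, 2799 TPM of apoeb and 119 TPM of pax8, more than any of the other 5. Skin markers summed to 2725, 54.7 and 3.29 TPM at 1 dpf, against 50.9, 47.7 and 67.9 TPM at 75% epiboly, and hatching gland markers reached 5161 TPM in 1 dpf replicate 2 and at most 1.05 TPM elsewhere. Markers of red blood cells, yolk layer and liver, endothelium, and pigment cells and neural crest each summed to at most 7.21 TPM in any library. These small panels do not stand for the wider gene lists. The endoderm, yolk and liver list summed to 106, 164 and 151 TPM at 1 dpf, against 527, 1109 and 4129 TPM at 75% epiboly. The blood list summed to 85.8, 207 and 146 TPM, against 208, 127 and 202 TPM. The pigment cell gene mitfa, outside the panel, had 10.5, 19.2 and 19.2 TPM at 1 dpf. A group of 26 features known only by clone names, each averaging at least 1000 TPM at a stage, took 3.47%, 2.40% and 2.66% of all TPM at 1 dpf, against 27.8%, 30.2% and 35.7% at 75% epiboly. Because TPM are shares, this difference bears on every other gene. Across genes, Pearson's r of log2(TPM + 1) was 0.928 to 0.929 between the 1 dpf libraries, 0.871 to 0.913 between the 75% epiboly libraries and 0.595 to 0.652 between stages, a description only since genes are not independent.

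Of 16536 genes with a mean of at least 1 TPM, 7085 were higher at 1 dpf (42.8%) and 1828 were lower (11.1%), by limma on log2(TPM + 1) with a Benjamini-Hochberg adjusted p under 0.05, the rule meant by "called" throughout. The median gene was itself 0.99 higher at 1 dpf on the log2 scale. Rescaling changed the split: 5461 higher and 2796 lower after median-ratio scaling (median 0.47), 3905 and 3956 after quantile normalization (median 0.04), and 5763 and 2570 without the 26 clone-named features (median 0.59). The genes called in the same direction under all of these and on the deposited scale numbered 3865 higher (23.4%) and 1820 lower (11%). The summary over scalings, and the removal of clone-named features, were devised after seeing that scaling moved the calls. List medians are therefore given relative to the median gene, and counts "under all 4 scalings" follow that summary. Log2 differences are on the log2(TPM + 1) scale, 1 dpf minus 75% epiboly, with the standard error after the ± sign, and they understate changes of low genes. A difference in brackets without a p-value belongs to a called gene. All 3 libraries at 1 dpf lay above all 3 at 75% epiboly for 7986 genes (48.3%) and below them for 2266 (13.7%), and counts in a gene list can be read against these shares. Of the genes called higher, 1364 were listed at 0 in all 3 libraries at 75% epiboly, and for these no fold is given. Each stage was deposited as its own table, so a difference between stages and a difference between tables cannot be told apart.

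**Figure D1:**
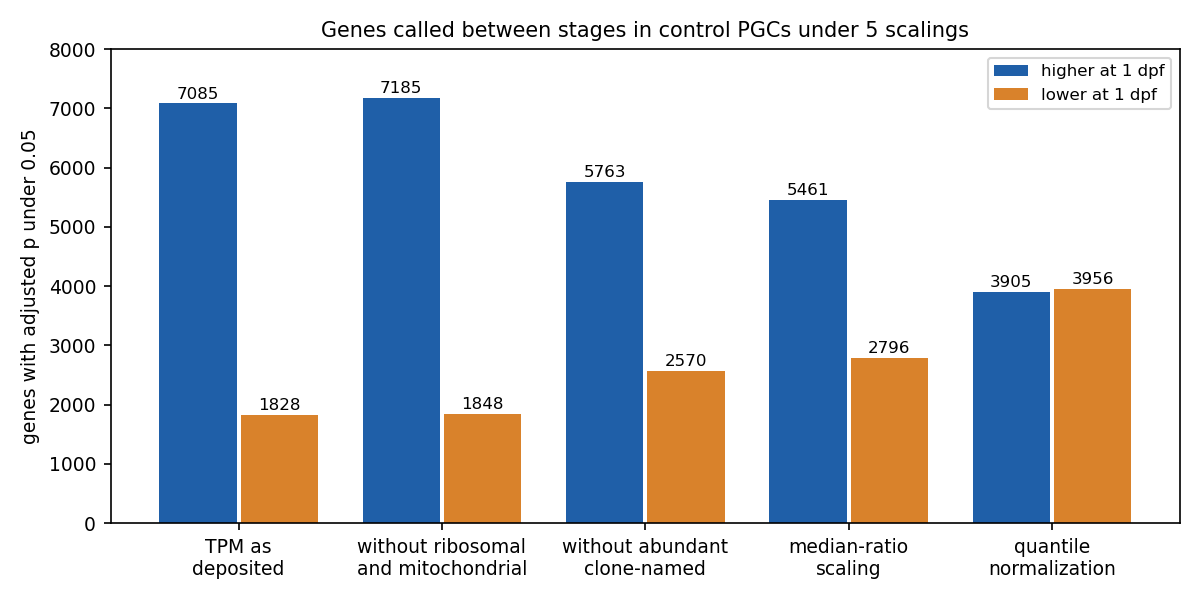
Number of genes (y axis) called higher (blue) or lower (orange) at 1 dpf than at 75% epiboly in control PGCs, under 5 ways of scaling the same TPM (x axis). The number higher runs between 3905 and 7185, and the number lower between 1828 and 3956.

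The germ cell markers nanos3, dnd1, ca15b and ddx4 were abundant at both stages, and none of them passed the test between the stages. Nanos3, an RNA-binding protein required for PGC maintenance, had the highest mean level of any gene with an assigned symbol at 1 dpf, with 14574, 11592 and 11918 TPM at 1 dpf, against 10621, 15551 and 2269.7 TPM at 75% epiboly (0.81 ± 0.62, adjusted p = 0.296). The groups overlapped, and without 75% epiboly replicate 3 the difference was -0.03. After quantile normalization nanos3 passed as higher at 1 dpf, with a difference of 2.501, and in the control-MO libraries it was called higher with 4165 and 1059.9 TPM at 1 dpf, against 379 and 391 TPM at 75% epiboly. Dnd1, which shields germline mRNAs from microRNAs, had 968, 834 and 456 TPM at 1 dpf, against 1055, 783 and 226 TPM at 75% epiboly. Ca15b, a carbonic anhydrase gene marking zebrafish PGCs, had 2133, 1145 and 1287 TPM at 1 dpf, against 1402, 1639 and 627 TPM at 75% epiboly. The values of both genes overlapped between stages and neither was called (adjusted p = 0.644 and 0.432). Ddx4, the Vasa RNA helicase, had 562, 443 and 583 TPM at 1 dpf, against 1806, 2466 and 393 TPM at 75% epiboly. It was not called (-1.196 ± 0.61, adjusted p = 0.131), but it was called lower without 75% epiboly replicate 3 (difference -2.003, adjusted p = 0.000255) and under the 3 other scalings (differences -1.64, -1.77 and -1.70). In the control-MO libraries ddx4 had 166 and 148 TPM at 1 dpf, against 106 and 217 TPM at 75% epiboly. It was not called there (0.049 ± 0.39, adjusted p = 0.927). In bulk RNA of sorted cells, fewer cells of a type and less RNA per cell cannot be told apart.

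Some other genes of the germ plasm and germ cell fate list fell at 1 dpf. Of 35 tested, the 4 above included, 2 were higher, 12 lower and 21 not called. Under all 4 scalings 0 were higher and 12 lower, and the list median was -1.61 relative to the median gene. Beside them, 42.8% of all genes were higher and 11.1% lower, 23.4% and 11% under all 4 scalings. The RNA-binding zinc finger gene cth1 had 1.29, 1.70 and 3.58 TPM at 1 dpf, against 34.3, 64.6 and 70.32 TPM at 75% epiboly (-4.17 ± 0.44, adjusted p = 0.000281). Sinup had 11.9, 14.4 and 14.5 TPM at 1 dpf, against 208, 164 and 70.13 TPM at 75% epiboly (-3.21 ± 0.43), and buc, which encodes Bucky ball, the organizer of the germ plasm granule, had 2.89, 1.71 and 2.48 TPM at 1 dpf, against 10.3, 16.4 and 15.0 TPM at 75% epiboly (-2.14 ± 0.37). For all 3 genes each library at 1 dpf lay below each at 75% epiboly. Tdrd7a, a Tudor protein of germ granules, had 517, 326 and 264 TPM at 1 dpf, against 871, 681 and 515 TPM at 75% epiboly (-0.92 ± 0.30, adjusted p = 0.0326), and its values overlapped by 1 library. Dazl, a translational activator in germ cells, moved the other way, with 280.3, 335 and 274 TPM at 1 dpf, against 104, 200.4 and 73.0 TPM at 75% epiboly (1.35 ± 0.37, adjusted p = 0.0159). The call of dazl was lost without any 1 of the 1 dpf libraries and under the 3 other scalings, although dazl was also called higher in the control-MO libraries (200.1 and 121 TPM at 1 dpf, against 29.1 and 10.9 TPM at 75% epiboly). That of tdrd7a was lost without 1 dpf replicate 2 or 3 and without 75% epiboly replicate 1 or 2. Under quantile normalization 21 genes of this list were lower. The count of higher genes was 0 without 1 dpf replicate 1 or replicate 2, 1 without 1 dpf replicate 3 and 4 without 75% epiboly replicate 2.

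The piRNA pathway, in which Piwi proteins and small RNAs silence transposons, held members that rose and members that did not pass. Of 19 genes tested, 7 were higher and 1 lower, beside 42.8% and 11.1% of all genes. Under all 4 scalings 4 were higher and 1 lower, beside 23.4% and 11% of all genes. The list median was 0.002 above the median gene, so the list as a whole did not stand apart from it. Henmt1, which methylates the 3' ends of piRNAs, had 131, 111 and 105 TPM at 1 dpf, against 3.01, 1.35 and 1.84 TPM at 75% epiboly (5.28 ± 0.34, adjusted p = 6.37e-05). Pld6, whose mouse relative acts on the mitochondrial surface in piRNA formation, had 145, 139 and 198 TPM at 1 dpf, against 14.0, 13.7 and 3.24 TPM at 75% epiboly (4.03 ± 0.52). Tdrkh, a Tudor protein of the same pathway in mouse, had 46.1, 51.4 and 57.6 TPM at 1 dpf, against 4.48, 2.63 and 5.86 TPM at 75% epiboly (3.35 ± 0.36), and exd1 had 64.5, 86.7 and 87.2 TPM at 1 dpf, against 27.1, 22.5 and 21.8 TPM at 75% epiboly (1.69 ± 0.29). These 4 genes had no overlap between stages. The Piwi genes themselves, of which piwil2 was chosen after its values were seen, were not called: piwil1 had 13.4, 25.3 and 18.5 TPM at 1 dpf, against 16.2, 14.7 and 2.75 TPM at 75% epiboly, and piwil2 had 17.7, 14.7 and 16.1 TPM at 1 dpf, against 20.2, 28.1 and 6.32 TPM at 75% epiboly. The single lower gene was tdrd7a, already described, and that count was 0 without 1 dpf replicate 2 or 3 or without 75% epiboly replicate 1 or 2, and 3 without 75% epiboly replicate 3.

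Several meiotic genes were listed at 0 at 75% epiboly and above 0 at 1 dpf. Of 11 tested, 7 were higher and 0 lower, 3 and 0 under all 4 scalings, and 5 of the 7 were listed at 0 in every 75% epiboly library. Among all genes 42.8% were higher and 11.1% lower, 23.4% and 11% under all 4 scalings. Of the 7085 genes called higher, 1364 were listed at 0 in every 75% epiboly library. The meiotic list median was 0.77 above the median gene. Sycp3, a component of the synaptonemal complex that joins homologous chromosomes, had 10.03, 12.4 and 14.7 TPM at 1 dpf and was listed at 0 in all 3 libraries at 75% epiboly (adjusted p = 0.000174). Terb2, which in mouse ties telomeres to the nuclear envelope in meiosis, had 9.04, 17.5 and 13.0 TPM at 1 dpf and was also listed at 0 in all 3 libraries at 75% epiboly (adjusted p = 0.000218). Spata22, a meiotic recombination gene, had 6.09, 8.11 and 10.6 TPM at 1 dpf, against 1.73, 0.652 and 0.185 TPM at 75% epiboly (2.38 ± 0.44). These levels were low beside those of nanos3 on the same per-length scale. The count of higher genes was 4 without 1 dpf replicate 2 and 3 without 1 dpf replicate 3.

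**Figure D2:**
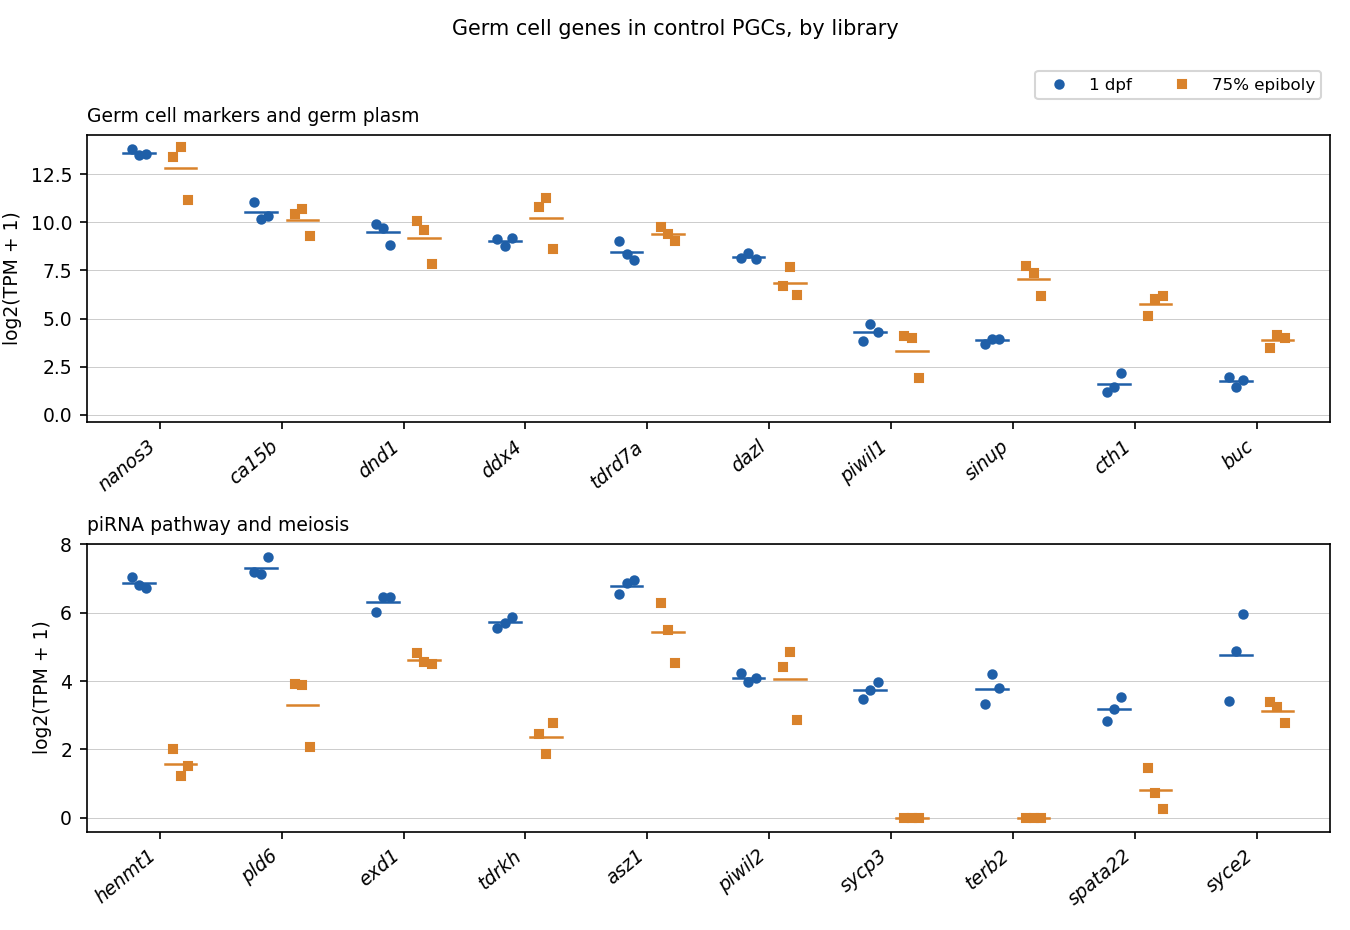
Level of 20 germ cell genes in each control library, as log2(TPM + 1) on the y axis, with 1 dpf libraries as blue circles, 75% epiboly libraries as orange squares and the mean of 3 libraries as a line. Henmt1, pld6, tdrkh, sycp3 and terb2 lie above and cth1, sinup and buc below their 75% epiboly values at 1 dpf, while nanos3, ca15b, dnd1 and ddx4 overlap.

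Some maternal and egg transcripts fell. Of 37 oocyte and egg genes tested, 4 were higher, 9 lower and 24 not called, with 1 higher and 9 lower under all 4 scalings. Beside them, 42.8% of all genes were higher and 11.1% lower, 23.4% and 11% under all 4 scalings. The list median was -1.01 relative to the median gene. Ybx1, a cold-shock RNA-binding protein of maternal mRNA particles, had 479, 431 and 483 TPM at 1 dpf, against 1010.4, 1183 and 1386 TPM at 75% epiboly (-1.35 ± 0.17), and stm, which encodes Starmaker, had 14.8, 33.6 and 15.8 TPM at 1 dpf, against 99.9, 122 and 244 TPM at 75% epiboly (-2.79 ± 0.46). Neither overlapped between stages. The count of higher genes was 2 without 1 dpf replicate 1 or without 75% epiboly replicate 2, and 1 without 1 dpf replicate 2 or 3.

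Factors that activate the zygotic genome and hold cells in an early embryonic state were mostly lower at 1 dpf. Of 25 pluripotency and genome activation genes tested, 3 were higher and 14 lower, 1 and 14 under all 4 scalings, with a list median of -2.58 relative to the median gene. Pou5f3, a pioneer transcription factor of zebrafish genome activation, had 3.10, 2.305 and 2.23 TPM at 1 dpf, against 93.5, 184 and 157 TPM at 75% epiboly (-5.32 ± 0.37, adjusted p = 7.01e-05). Foxh1, a Nodal effector, had 1.68, 2.99 and 1.85 TPM at 1 dpf, against 74.6, 68.2 and 44.4 TPM at 75% epiboly (-4.31 ± 0.37), and sall4 had 4.81, 7.46 and 6.56 TPM at 1 dpf, against 77.3, 93.3 and 92.9 TPM at 75% epiboly (-3.62 ± 0.31). In each case the groups were far apart. Mych, a Myc family gene, had 13.0, 17.4 and 16.8 TPM at 1 dpf, against 279, 341 and 175 TPM at 75% epiboly (-3.95 ± 0.33), whereas its relative myca had 15.8, 14.4 and 17.96 TPM at 1 dpf, against 0, 0 and 0.97 TPM at 75% epiboly (3.76 ± 0.41), the opposite direction. Lin28a, which blocks maturation of let-7 microRNA, had 41.1, 35.6 and 36.8 TPM at 1 dpf, against 126, 79.6 and 148 TPM at 75% epiboly (-1.57 ± 0.31), and nanog had 9.09, 11.5 and 8.13 TPM at 1 dpf, against 25.5, 78.1 and 27.0 TPM at 75% epiboly (-1.89 ± 0.48, adjusted p = 0.0118). The nanog call was lost without 1 dpf replicate 1 or 3. Nanog and lin28a thus stayed above 8 TPM in every library at 1 dpf. Myca and nanog were chosen after their values were seen.

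Genes of the gastrula's own transcription had the lowest medians of all 50 lists. In the first zygotic wave, the genes first transcribed from the embryo's own genome, 1 of 29 was higher and 21 lower (1 and 21 under all 4 scalings), with a list median of -4.003 relative to the median gene. In the dorsal organizer and gastrula mesoderm list, 1 of 31 was higher and 20 lower (0 and 20), with a list median of -3.56 relative to the median gene. Tbx16, a T-box factor of ventral and paraxial mesoderm, had 2.202, 3.94 and 2.49 TPM at 1 dpf, against 328, 712 and 535 TPM at 75% epiboly (-7.04 ± 0.38, adjusted p = 5.02e-05), among the largest falls of any gene with an assigned symbol. Sp5l, a Wnt target, had 1.35, 4.61 and 1.05 TPM at 1 dpf, against 237, 335 and 314 TPM at 75% epiboly (-6.61 ± 0.44), and foxd5 had 0.355, 0.584 and 3.88 TPM at 1 dpf, against 163, 239 and 282 TPM at 75% epiboly (-6.67 ± 0.53). The oscillating segmentation genes her1 and her7 had 0, 0.617 and 1.199 TPM and 0, 1.303 and 0 TPM at 1 dpf, against 54.1, 223 and 243 TPM and 35.1, 75.5 and 105 TPM at 75% epiboly. Tbxta, the Brachyury gene of notochord and tail, had 9.24, 13.9 and 10.95 TPM at 1 dpf, against 110.3, 241 and 356 TPM at 75% epiboly (-4.12 ± 0.45), and cdx4, a regulator of posterior body genes, had 31.3, 12.8 and 34.9 TPM at 1 dpf, against 321, 413 and 594 TPM at 75% epiboly (-4.09 ± 0.43). Noto, a notochord regulator, was listed at 0 in all 3 libraries at 1 dpf, against 10.9, 29.1 and 16.6 TPM at 75% epiboly. Each of these genes was lower in every 1 dpf library than in any 75% epiboly library. In these lists leaving out 1 library moved the count of higher first zygotic genes to 0 without 1 dpf replicate 3, when isg15 was not called, and no other count by over 1.5 times. Of 9 endoderm regulators, 0 were higher and 5 lower (3 lower without 1 dpf replicate 1 or 3 or 75% epiboly replicate 2; 1 higher without 1 dpf replicate 2). Mixl1, an endoderm and mesoderm regulator, had 3.96, 3.63 and 2.0 TPM at 1 dpf, against 26.3, 66.9 and 10.2 TPM at 75% epiboly (-2.74 ± 0.64), a call lost without 1 dpf replicate 3. The notochord markers shha, col9a1a and noto summed to 2.41, 0.607 and 3.12 TPM at 1 dpf, against 10.9, 29.3 and 16.6 TPM at 75% epiboly. At 75% epiboly nearly all of this sum was noto, and at 1 dpf it came from shha and col9a1a alone. Without noto the sum was thus higher at 1 dpf. The part of neighbouring cells in these values was not tested.

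The receptor-activated Smads of the BMP pathway changed their order between the stages. BMP ligands signal through receptors that phosphorylate Smad1, Smad5 and Smad9, which enter the nucleus with Smad4, and smad1 is the gene this study removed. Smad1 had 140.0, 140.0 and 134 TPM at 1 dpf, against 9.68, 13.5 and 17.9 TPM at 75% epiboly (3.28 ± 0.31, adjusted p = 0.000189). Smad9 had 137, 142 and 123 TPM at 1 dpf, against 42.2, 26.1 and 36.1 TPM at 75% epiboly (1.94 ± 0.28, adjusted p = 0.00109). Smad5, which is supplied maternally and patterns the gastrula, had 31.7, 33.5 and 42.8 TPM at 1 dpf, against 70.7, 107 and 107 TPM at 75% epiboly (-1.36 ± 0.30, adjusted p = 0.00642). At 75% epiboly the levels of the 3 genes did not overlap, with smad5 highest, smad9 next and smad1 lowest. At 1 dpf smad1 and smad9 overlapped and both were above smad5 in every library. Smad4a had 2.43, 1.096 and 0.512 TPM at 1 dpf, against 50.6, 50.6 and 22.0 TPM at 75% epiboly (-4.15 ± 0.49, adjusted p = 0.00044). All 4 calls held under every scaling, but smad9 and smad4a were not called in the control-MO libraries (adjusted p = 0.901 and 0.154), where smad9 had 64.0 and 44.7 TPM at 1 dpf and 58.2 and 45.8 TPM at 75% epiboly, and smad4a had 8.18 and 15.5 TPM and 21.4 and 19.6 TPM. For both genes the difference between the experiments was itself called (adjusted p = 0.0315 and 0.0257). Smad1 and smad5 were called there in the same directions (differences 4.18 and -2.02).

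Across the whole BMP pathway, ligands, receptors and antagonists moved in both directions. Of 39 ligands, receptors, antagonists and Smads tested, 11 were higher and 14 lower, 9 and 14 under all 4 scalings. Among all genes 42.8% were higher and 11.1% lower, and the list median was -1.18 relative to the median gene. The ligand gene bmp2a had 16.1, 30.4 and 32.2 TPM at 1 dpf and was listed at 0 in all 3 libraries at 75% epiboly (adjusted p = 0.000125). The ligand gene bmp7b had 18.8, 18.2 and 22.1 TPM at 1 dpf, against 0, 1.79 and 1.33 TPM at 75% epiboly (3.47 ± 0.47), and its paralog bmp7a, the gastrula ligand, had 0.408, 1.34 and 0.205 TPM at 1 dpf, against 6.52, 19.5 and 48.3 TPM at 75% epiboly (-3.63 ± 0.68). The receptor gene bmpr1ba had 15.9, 19.3 and 11.05 TPM at 1 dpf, against 0, 2.41 and 0.959 TPM at 75% epiboly (3.09 ± 0.52). Among antagonists, nog3 had 10.5, 18.6 and 10.6 TPM at 1 dpf, against 0.627, 0 and 0 TPM at 75% epiboly (3.55 ± 0.41) and chrd, the dorsal organizer's Chordin, had 0.606, 0.217 and 3.50 TPM at 1 dpf, against 19.0, 14.0 and 8.65 TPM at 75% epiboly (-2.79 ± 0.57). The inhibitory Smad gene smad6b had 28.4, 22.8 and 27.2 TPM at 1 dpf, against 6.86, 3.84 and 6.09 TPM at 75% epiboly (2.07 ± 0.35). None of these genes overlapped between stages. Bmp7a, bmp7b, bmpr1ba, chrd and smad6b were chosen after their values were seen.

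The transcriptional targets of the pathway included gastrula targets that fell and Id genes that rose. Of 34 targets tested, 7 were higher and 16 lower, 5 and 16 under all 4 scalings. Among all genes 42.8% were higher and 11.1% lower, and the list median was -2.42 relative to the median gene. Id proteins block differentiation by binding basic helix-loop-helix factors. Id4 and id2b had 53.3, 47.5 and 55.7 TPM and 45.4, 74.9 and 70.9 TPM at 1 dpf, and both were listed at 0 in all 3 libraries at 75% epiboly (adjusted p = 5.26e-05 and 5.98e-05). Id2a, chosen after its values were seen, had 122, 64.0 and 121 TPM at 1 dpf, against 3.44, 3.86 and 10.98 TPM at 75% epiboly (3.96 ± 0.49). Id1, the most abundant of them, had 709.8, 466 and 919 TPM at 1 dpf, against 651, 658 and 607 TPM at 75% epiboly and was not called (adjusted p = 0.818). The ventral repressor genes vox and ved had 1.55, 0.481 and 1.04 TPM and 139, 66.4 and 125 TPM at 1 dpf, against 41.1, 80.6 and 96.5 TPM and 316, 645 and 602 TPM at 75% epiboly (-5.13 ± 0.44 and -2.23 ± 0.38). Eve1 had 0.922, 0 and 0 TPM at 1 dpf, against 50.5, 78.0 and 169 TPM at 75% epiboly (-6.15 ± 0.53), and gata2a had 0.866, 0.925 and 0.0894 TPM at 1 dpf, against 136, 65.2 and 154 TPM at 75% epiboly (-6.15 ± 0.45). No count in the BMP lists moved by over 1.5 times when 1 library was left out.

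**Figure D3:**
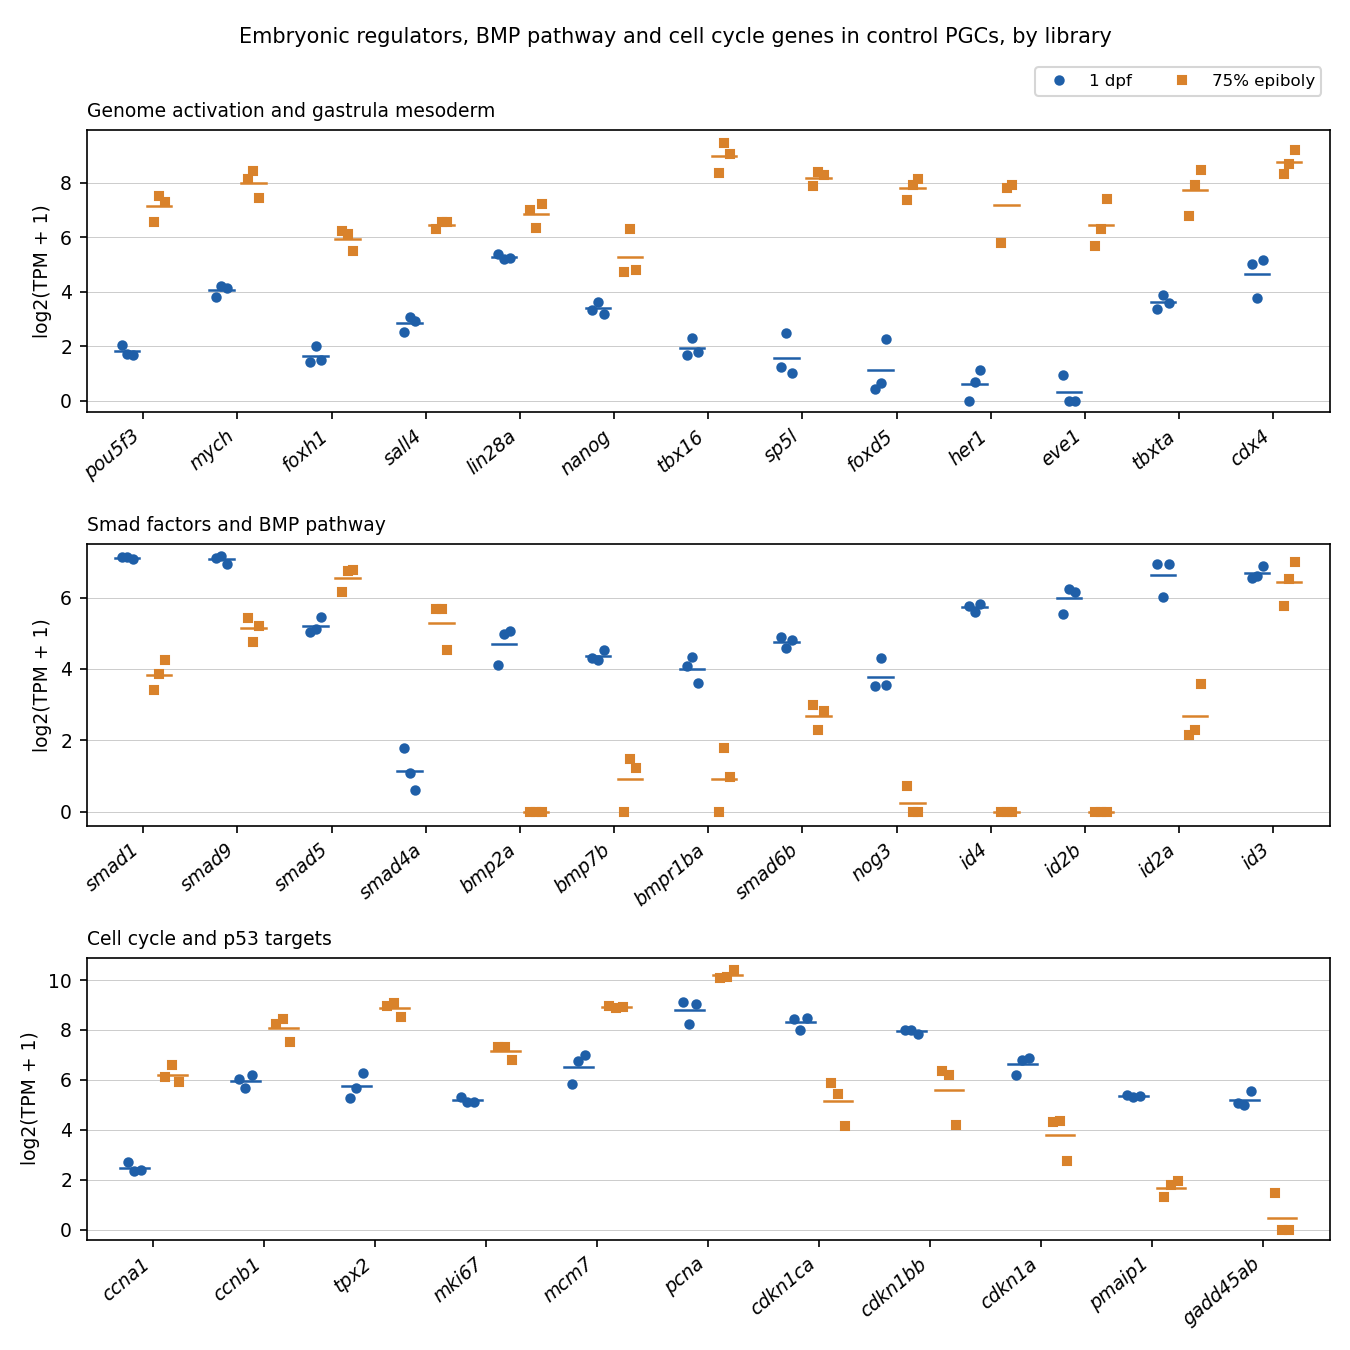
Level in each control library, as log2(TPM + 1) on the y axis, of early embryonic regulators, of Smads and BMP pathway genes, and of cell cycle and p53 target genes, with 1 dpf libraries as blue circles, 75% epiboly libraries as orange squares and the mean of 3 libraries as a line. The 13 early regulators are lower at 1 dpf in every library, smad1 and smad9 are higher and smad5 lower, and id2b, id4 and bmp2a lie at 0 at 75% epiboly.

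The other signalling pathways of the gastrula had more genes lower than higher. For FGF, 1 of 20 genes was higher and 12 lower. For Wnt, 0 of 32 were higher and 16 lower, for Nodal 3 of 23 and 11, and for Notch and Hairy repressors 3 of 30 and 12. None of those counted higher was so under all 4 scalings, and all of those counted lower were. The FGF target etv4 had 9.60, 9.92 and 6.98 TPM at 1 dpf, against 210.3, 186 and 201 TPM at 75% epiboly (-4.36 ± 0.28, adjusted p = 6.31e-05). Spry1, a feedback inhibitor of FGF signalling, was listed at 0 in all 3 libraries at 1 dpf, against 50.6, 65.0 and 30.01 TPM at 75% epiboly. In the control-MO libraries spry1 had 2.83 and 2.82 TPM at 1 dpf, against 4.65 and 7.86 TPM at 75% epiboly, and was not called (adjusted p = 0.137). The Wnt effectors ctnnb1 and ctnnb2, which encode beta-catenins, had 40.1, 45.4 and 53.4 TPM and 44.3, 49.98 and 40.01 TPM at 1 dpf, against 324, 254 and 432 TPM and 621, 381 and 156 TPM at 75% epiboly. Acvr1bb, a Nodal and activin receptor gene, had 5.73, 2.498 and 6.61 TPM at 1 dpf, against 45.1, 92.4 and 73.7 TPM at 75% epiboly (-3.60 ± 0.44), while the control-MO libraries had 51.8 and 66.5 TPM at 1 dpf, against 35.9 and 23.3 TPM at 75% epiboly. The Notch ligand gene dld had 2.29, 2.31 and 1.72 TPM at 1 dpf, against 15.6, 36.3 and 61.3 TPM at 75% epiboly (-3.45 ± 0.51). Apart from the control-MO values, every 1 dpf library lay below every 75% epiboly library for these genes. Leaving out 1 library changed the number higher to 5 for Nodal (75% epiboly replicate 1), to 1 for Wnt (75% epiboly replicate 3), and to 5 (1 dpf replicate 2) or 1 (75% epiboly replicate 2) for Notch.

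The retinoic acid and Hox lists held more genes higher than lower, at shares close to the 42.8% of all genes tested. Retinoic acid is made by Aldh1a enzymes, broken down by Cyp26 enzymes, and read by receptors that pair with retinoid X receptors, while Dhrs3 limits its synthesis by turning the precursor retinaldehyde back into retinol. Of 22 genes tested, 10 were higher and 4 lower, 7 and 4 under all 4 scalings. Dhrs3a had 109, 92.5 and 79.1 TPM at 1 dpf and was listed at 0 in all 3 libraries at 75% epiboly, and dhrs3b had 306, 249 and 267 TPM at 1 dpf, against 7.07, 23.2 and 65.2 TPM at 75% epiboly (3.55 ± 0.67). Of the retinoid X receptor genes, rxrgb had 37.8, 48.6 and 49.5 TPM at 1 dpf, against 5.51, 1.87 and 0 TPM at 75% epiboly (4.11 ± 0.65), and rxrba had 4.14, 3.15 and 6.57 TPM at 1 dpf, against 41.6, 54.2 and 30.5 TPM at 75% epiboly (-2.95 ± 0.39). Both were separated between stages in every library. Of 34 Hox genes, 17 were higher and 2 lower, 10 and 2 under all 4 scalings, with a list median 1.12 above the median gene, and 7 of the 17 were listed at 0 in every 75% epiboly library. Hoxa4a had 213, 112 and 62.3 TPM at 1 dpf, against 0, 0 and 1.01 TPM at 75% epiboly (6.51 ± 0.53), hoxb5b had 61.8, 35.9 and 20.3 TPM at 1 dpf, against 0, 0 and 0.452 TPM at 75% epiboly (5.02 ± 0.48), and hoxb6a had 43.6, 27.2 and 19.2 TPM at 1 dpf, against 0, 0 and 0.786 TPM at 75% epiboly (4.60 ± 0.45). In each, 1 dpf replicate 1 was the highest library. The 4 neuronal markers were also highest there, with a summed level of 58.0, 17.0 and 25.4 TPM at 1 dpf, against at most 1.18 TPM at 75% epiboly, and the 4 muscle markers summed to 29.2, 12.8 and 24.8 TPM at 1 dpf, against at most 2.23 TPM at 75% epiboly. Their part in the Hox values was not tested. The 2 lower Hox genes, chosen after their values were seen, were the posterior genes hoxb13a and hoxa13b. Hoxb13a was listed at 0 in all 3 libraries at 1 dpf, against 8.30, 1.70 and 2.25 TPM at 75% epiboly. In the control-MO PGCs it was called the opposite way, with 16.0 and 10.01 TPM at 1 dpf, against 3.59 and 1.19 TPM at 75% epiboly (2.11, adjusted p = 0.032), and the difference between the experiments was called (adjusted p = 0.0167). Hoxa13b had 1.08, 0 and 0 TPM at 1 dpf, against 3.46, 1.26 and 2.34 TPM at 75% epiboly (-1.34 ± 0.46). The count of 2 lower Hox genes was 1 without 1 dpf replicate 2 or 3 or 75% epiboly replicate 3 and 0 without 75% epiboly replicate 1.

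Migration genes had no common direction, and the paired receptor genes for Cxcl12 differed. Of 51 genes tested, 17 were higher and 7 lower, 6 and 7 under all 4 scalings, and the number lower was 14 to 18 under the 3 other scalings. The list median was -0.68 relative to the median gene. Cxcr4b, the chemokine receptor that guides PGCs, had 508, 587 and 594 TPM at 1 dpf, against 249, 218 and 93.9 TPM at 75% epiboly (1.70 ± 0.36, adjusted p = 0.00555), whereas its paralog cxcr4a had 2.68, 5.68 and 4.87 TPM at 1 dpf, against 56.7, 24.1 and 22.9 TPM at 75% epiboly (-2.64 ± 0.47, adjusted p = 0.00247). Neither overlapped between stages, and cxcr4b was chosen after its values were seen. In the control-MO libraries both kept their direction, but neither was called (adjusted p = 0.151 for cxcr4b and 0.0749 for cxcr4a). Arpc3, a subunit of the complex that branches actin filaments, had 1057, 1079.5 and 997 TPM at 1 dpf, against 219, 112 and 55.8 TPM at 75% epiboly (3.22 ± 0.44). Cdc42, a small GTPase of cell polarity, had 334, 335 and 395 TPM at 1 dpf, against 48.6, 44.8 and 64.6 TPM at 75% epiboly (2.74 ± 0.25), while the control-MO libraries had 129.7 and 148 TPM at 1 dpf, against 82.7 and 83.8 TPM at 75% epiboly. The abundant actin gene actb1 had 1442, 1420.1 and 1828 TPM at 1 dpf, against 852, 580.0 and 617 TPM at 75% epiboly (1.205 ± 0.20).

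Most mitotic genes were lower at 1 dpf. Of 64 genes of G2 and mitosis tested, 4 were higher and 42 lower, 3 and 42 under all 4 scalings, with a list median of -2.85 relative to the median gene. No single library moved either count by over 1.5 times. Ccna1, the early embryonic cyclin A, had 5.57, 4.17 and 4.22 TPM at 1 dpf, against 67.6, 97.2 and 59.6 TPM at 75% epiboly (-3.72 ± 0.34, adjusted p = 0.000163). Ccnb1, the mitotic cyclin B, had 64.0, 50.3 and 73.3 TPM at 1 dpf, against 302, 348 and 183 TPM at 75% epiboly (-2.10 ± 0.31), and tpx2, a spindle assembly factor, had 37.9, 50.5 and 76.7 TPM at 1 dpf, against 503, 547 and 371 TPM at 75% epiboly (-3.12 ± 0.32). Mki67, the Ki-67 proliferation marker, chosen after its values were seen, had 38.8, 33.6 and 34.0 TPM at 1 dpf, against 158, 159 and 110.3 TPM at 75% epiboly (-1.96 ± 0.27). All 4 genes were lower at 1 dpf in every library. Of 73 genes of G1/S and DNA replication, 16 were higher and 31 lower, 6 and 31 under all 4 scalings. Mcm7, a replicative helicase subunit, had 55.8, 106 and 127 TPM at 1 dpf, against 502, 474 and 489.7 TPM at 75% epiboly (-2.41 ± 0.32), and pcna, the polymerase clamp, had 563, 303 and 525 TPM at 1 dpf, against 1095, 1126 and 1335 TPM at 75% epiboly (-1.40 ± 0.26). E2f5, a repressive E2F factor, was among those higher, with 47.8, 47.5 and 48.2 TPM at 1 dpf, against 0.552, 5.55 and 4.52 TPM at 75% epiboly (3.67 ± 0.56). This list was less stable: 10 higher and 16 lower without 1 dpf replicate 1, 16 lower without 1 dpf replicate 2, and 10 higher and 19 lower without 1 dpf replicate 3.

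Inhibitors of cyclin-dependent kinases were among the genes that rose. Of 30 such inhibitors and p53 targets tested, 16 were higher and 0 lower, 10 and 0 under all 4 scalings, beside 42.8% and 11.1% of all genes. Cdkn1ca, a p57 inhibitor of cyclin-dependent kinases, had 345, 254 and 353 TPM at 1 dpf, against 58.1, 42.3 and 17.0 TPM at 75% epiboly (3.14 ± 0.44, adjusted p = 0.000938). Cdkn1a, cdkn1bb and cdkn2a/b, further inhibitor genes, were chosen after their values were seen. Cdkn1a, the p21 gene, had 72.6, 110.0 and 118 TPM at 1 dpf, against 18.7, 19.7 and 5.81 TPM at 75% epiboly (2.82 ± 0.49), and cdkn1bb, a p27 gene, had 258, 258 and 229.8 TPM at 1 dpf, against 81.5, 72.2 and 17.4 TPM at 75% epiboly (2.37 ± 0.55). Cdkn2a/b had 6.97, 12.2 and 29.4 TPM at 1 dpf, against 0.493, 0 and 0 TPM at 75% epiboly (3.69 ± 0.54). All of these inhibitors were higher at 1 dpf in every library. The p53 targets pmaip1, a death-promoting BH3 gene, and gadd45ab, a growth arrest gene, had 40.8, 38.8 and 40.1 TPM and 33.0, 30.7 and 46.5 TPM at 1 dpf, against 1.51, 2.42 and 2.82 TPM and 1.74, 0 and 0 TPM at 75% epiboly. The number higher was 10 without 1 dpf replicate 3, and 1 gene was lower without 75% epiboly replicate 1 or 3. Apoptosis regulators held members that act in both senses, and 20 of 29 were higher and 0 lower (13 and 0 under all 4 scalings). The survival gene mcl1a had 481, 349.6 and 412 TPM at 1 dpf, against 78.8, 76.2 and 55.1 TPM at 75% epiboly (2.55 ± 0.25). Bcl2l10 had 177, 147 and 185 TPM at 1 dpf, against 26.4, 22.0 and 11.9 TPM at 75% epiboly (3.07 ± 0.35), while the control-MO libraries had 42.7 and 38.3 TPM at 1 dpf, against 65.6 and 35.0 TPM at 75% epiboly.

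Genes for mitochondrial energy production were higher almost throughout. Of 96 nuclear genes of oxidative phosphorylation tested, 86 were higher and 0 lower, 80 and 0 under all 4 scalings, with a list median 1.66 above the median gene. Of 74 mitochondrial ribosomal protein genes, 68 were higher and 0 lower, 58 and 0 under all 4 scalings, with a list median 1.22 above it. Ndufs4, a complex I subunit, had 932, 864 and 894 TPM at 1 dpf, against 37.2, 36.3 and 55.5 TPM at 75% epiboly (4.38 ± 0.24, adjusted p = 5.1e-05), and ndufa6, also of complex I, had 799, 836 and 765 TPM at 1 dpf, against 50.9, 49.3 and 51.2 TPM at 75% epiboly (3.96 ± 0.20). Atp5l, an ATP synthase subunit, had 1165, 1162 and 1112 TPM at 1 dpf, against 87.6, 129 and 106 TPM at 75% epiboly (3.42 ± 0.21). The 3 libraries of each stage lay close together and far from the other stage. Cox6b1, a cytochrome c oxidase subunit, had 348, 209 and 257 TPM at 1 dpf and was listed at 0 in all 3 libraries at 75% epiboly. Cox6b1 was also listed at 0 in every cKO and control-MO library at 75% epiboly. A listed 0 may be a failed estimate, which was not tested, and only the listed values are given. The mitochondrial ribosomal gene mrps10 had 733, 954 and 917 TPM at 1 dpf, against 112, 117 and 88.2 TPM at 75% epiboly (3.03 ± 0.22), and mrpl53 had 793, 781 and 673 TPM at 1 dpf, against 8.87, 28.1 and 25.2 TPM at 75% epiboly (5.25 ± 0.42). Of the 13 protein-coding genes of the mitochondrial genome, 10 were higher and 1 lower, 4 and 1 under all 4 scalings. Mt-co1 and mt-co3, oxidase subunits, had 5481, 4963 and 4729 TPM and 5809, 5089 and 5055 TPM at 1 dpf, against 1168, 582 and 683 TPM and 1199, 635 and 999 TPM at 75% epiboly. All mitochondrial features together, ribosomal RNA included, ran the other way, with 9.98%, 9.01% and 9.88% of TPM at 1 dpf, against 15.6%, 10.9% and 14.8% at 75% epiboly. The single lower one, mt-nd4l, chosen after its values were seen, had 134, 204 and 193 TPM at 1 dpf, against 626, 267 and 491 TPM at 75% epiboly (-1.31 ± 0.34). Of the mitochondrial genome, 6, 6 and 5 genes were higher without 1 dpf replicates 1, 2 and 3, and 0 were lower without 1 dpf replicate 1.

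Proteasome and redox genes were also mostly higher. On the deposited scale the counts for glycolysis, cholesterol synthesis and lysosome genes lay nearer to the 42.8% of all genes called higher. Under all 4 scalings these lists had 12 of 24, 11 of 24 and 14 of 35 higher, above the 23.4% of all genes. Their medians were 0.53, 0.92 and 0.47 above the median gene. Of 52 proteasome genes, 43 were higher and 0 lower, 36 and 0 under all 4 scalings, and without 75% epiboly replicate 3 there was 1 lower gene here and 1 among the redox genes. Psmb7, a catalytic subunit, had 2284, 2744 and 2631 TPM at 1 dpf, against 467, 449 and 549.8 TPM at 75% epiboly (2.38 ± 0.15, adjusted p = 6.25e-05), and psme1, an activator subunit, had 113, 132 and 151 TPM at 1 dpf, against 2.76, 1.18 and 2.72 TPM at 75% epiboly (5.40 ± 0.36). Neither overlapped between stages. Glycolysis genes were higher in 14 of 24 and lower in 3, 12 and 3 under all 4 scalings, and the 3 lower calls were lost without 1 dpf replicate 1 or 3 or without 75% epiboly replicate 1 or 2. Of the glyceraldehyde phosphate dehydrogenase genes, gapdhs had 244, 275 and 304 TPM at 1 dpf, against 10.8, 13.1 and 14.9 TPM at 75% epiboly (4.31 ± 0.27), and gapdh had 410.0, 642 and 526 TPM at 1 dpf, against 613, 302 and 153 TPM at 75% epiboly and was not called. Cholesterol and isoprenoid synthesis genes were higher in 13 of 24 and lower in 2, 11 and 2 under all 4 scalings. Msmo1, a sterol oxidase, had 68.8, 49.0 and 58.7 TPM at 1 dpf, against 0, 0.151 and 0 TPM at 75% epiboly (5.82 ± 0.34), and insig1, a brake on sterol synthesis, had 82.4, 74.2 and 65.0 TPM at 1 dpf, against 13.3, 12.8 and 5.25 TPM at 75% epiboly (2.80 ± 0.40). Isoprenoids from this pathway are known to be needed for the migration of PGCs. Redox and glutathione genes were higher in 20 of 28 and lower in 0 (18 and 0), among them gpx4b, a lipid peroxide reductase, with 1274, 1365 and 1119 TPM at 1 dpf, against 212, 271 and 185 TPM at 75% epiboly (2.502 ± 0.20). Lysosome and autophagy genes were higher in 18 of 35 and lower in 2 (14 and 2). The 2 lower were 0 without 1 dpf replicate 1, 1 without 1 dpf replicate 3 or 75% epiboly replicate 2, and 4 without 75% epiboly replicate 3. Ctsd, a lysosomal protease, had 503, 665 and 568 TPM at 1 dpf, against 81.5, 103 and 87.8 TPM at 75% epiboly (2.66 ± 0.22), and map1lc3a, an autophagosome protein, had 367, 481 and 345 TPM at 1 dpf, against 33.9, 19.0 and 10.4 TPM at 75% epiboly (4.31 ± 0.42).

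Ribosome biogenesis genes included members that fell, while cytosolic ribosomal proteins and translation factors were close to the median gene. Of 57 ribosome biogenesis genes, 8 were higher and 19 lower, 3 and 19 under all 4 scalings, and the number lower was 32 to 37 under the 3 other scalings. Ncl, nucleolin, had 41.0, 51.7 and 58.5 TPM at 1 dpf, against 714, 744 and 612 TPM at 75% epiboly (-3.76 ± 0.23, adjusted p = 5.98e-05), and npm1a, nucleophosmin, had 358, 305 and 404 TPM at 1 dpf, against 1118, 1374 and 1447 TPM at 75% epiboly (-1.88 ± 0.19). Gar1, of the pseudouridine-guiding particles, had 13.8, 16.9 and 14.4 TPM at 1 dpf, against 97.3, 99.4 and 73.2 TPM at 75% epiboly (-2.49 ± 0.29). All 3 were lower at 1 dpf in every library. The number higher was 4, 3 and 3 without 1 dpf replicates 1, 2 and 3. Of 81 cytosolic ribosomal proteins, 50 were higher and 2 lower on the deposited scale, but 14 and 2 under all 4 scalings, and the list median was -0.32 relative to the median gene. Rpl19 had 2863, 2856 and 2932 TPM at 1 dpf, against 649.6, 656 and 888 TPM at 75% epiboly (1.99 ± 0.16), one of those that held. Of 77 translation initiation and elongation genes, 42 were higher and 10 lower, 23 and 9 under all 4 scalings, and 6 were lower without any 1 of the 1 dpf libraries. Eif3g had 939.7, 1002 and 976 TPM at 1 dpf, against 248, 241 and 191 TPM at 75% epiboly (2.11 ± 0.18), and eif4ebp1, a repressor of cap-dependent translation, had 1002, 1252 and 1004 TPM at 1 dpf, against 251, 278 and 175 TPM at 75% epiboly (2.22 ± 0.23).

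**Figure D4:**
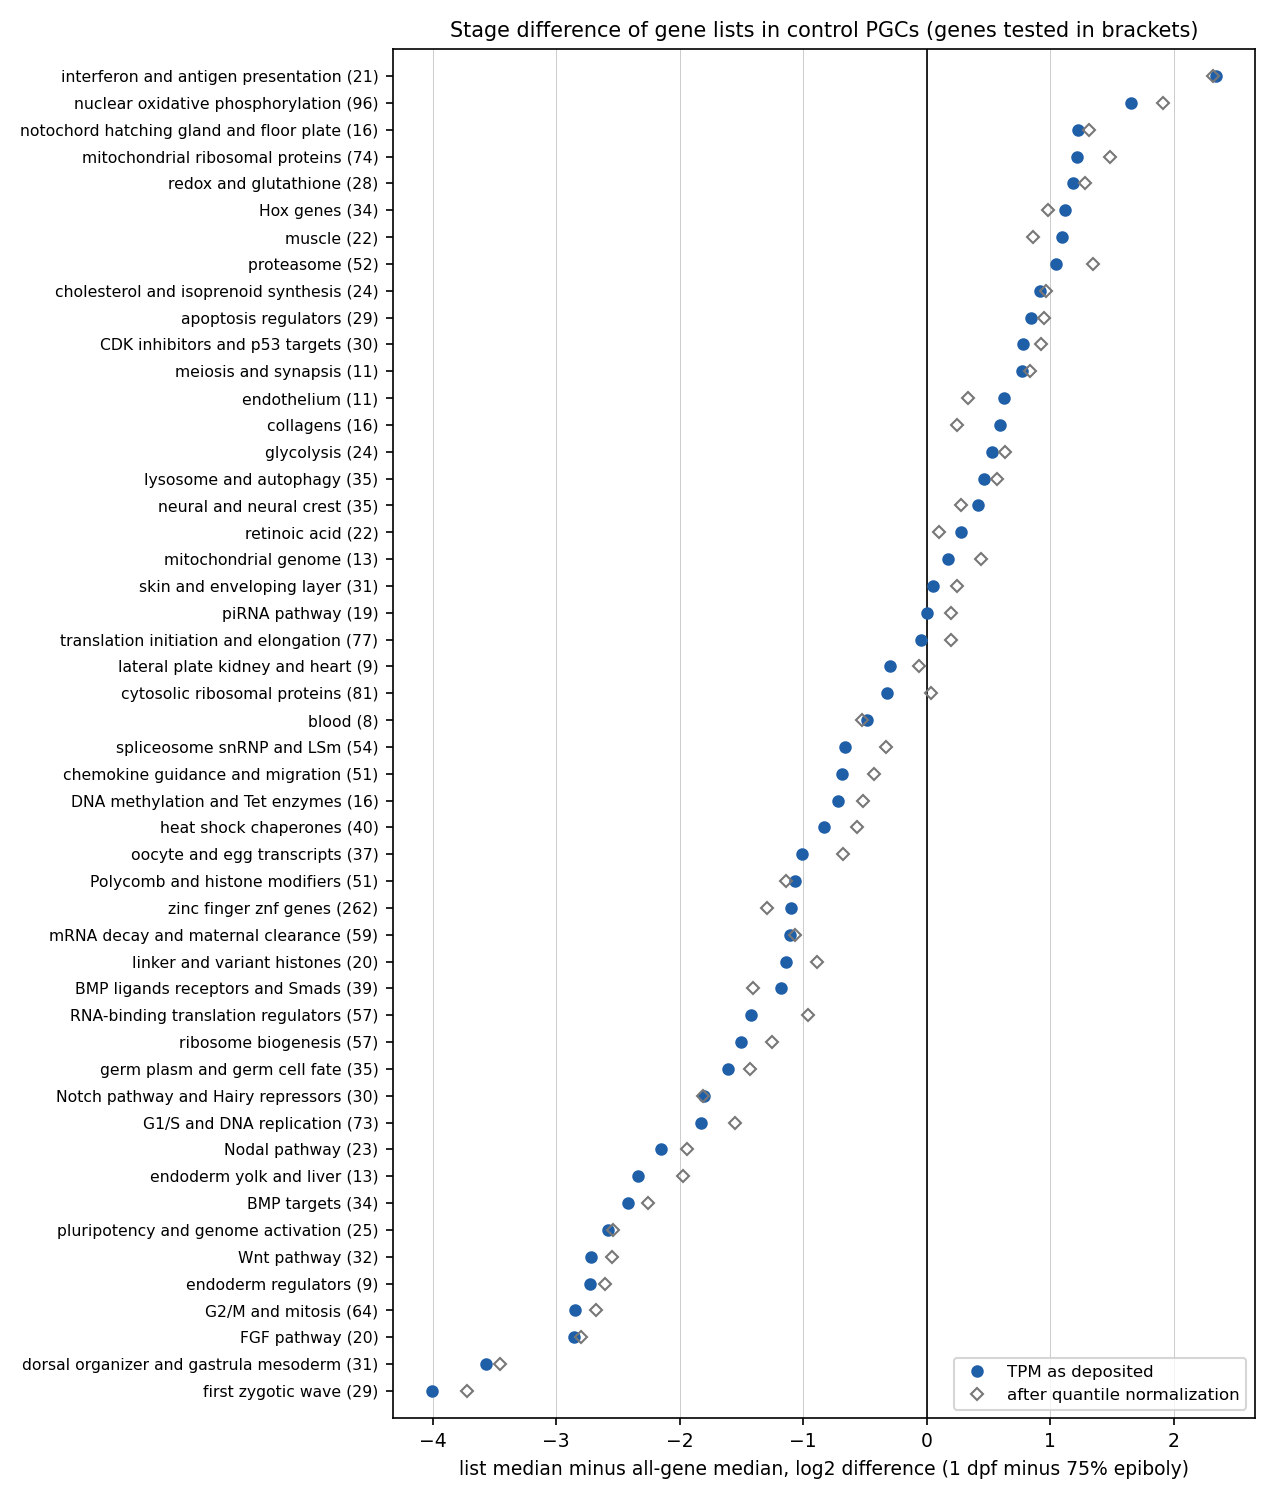
Median log2 difference (1 dpf minus 75% epiboly) of each of 50 gene lists minus that of all genes tested (x axis), for TPM as deposited (blue circles) and after quantile normalization (open diamonds), with the number of genes tested in brackets. Interferon and antigen presentation, at 2.34, lies highest and the first zygotic wave, at -4.003, lowest. The medians describe these libraries and carry no test.

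Chromatin genes moved in both directions. Relative to the median gene, the list medians were -1.14 for linker and variant histones, -1.06 for Polycomb and histone modifiers and -0.72 for DNA methylation genes. Among all genes 42.8% were higher and 11.1% lower. Of 20 linker and variant histone genes, 7 were higher and 7 lower, 6 and 7 under all 4 scalings (4 lower without 1 dpf replicate 1 or 2). Macroh2a2, a histone variant of silent chromatin, had 252, 323 and 282 TPM at 1 dpf, against 8.95, 24.1 and 22.4 TPM at 75% epiboly (3.99 ± 0.40, adjusted p = 0.000219). H3f3d, a replacement histone H3 gene, had 14.9, 13.1 and 14.7 TPM at 1 dpf, against 403, 436 and 1338 TPM at 75% epiboly (-5.34 ± 0.46). H2az2a, a variant histone H2A gene, had 2467, 2981 and 2823 TPM at 1 dpf, against 1363, 1599.6 and 773 TPM at 75% epiboly (1.21 ± 0.26). Macroh2a2 and h2az2a were higher and h3f3d lower in every control 1 dpf library. In the control-MO libraries h2az2a had the opposite sign, with 937 and 638 TPM at 1 dpf, against 1069 and 1294 TPM at 75% epiboly. It was not called there (-0.60, adjusted p = 0.139). Of 51 Polycomb and histone modifier genes, 7 were higher and 12 lower, 2 and 12 under all 4 scalings. The number lower was 4, 6 and 4 without 1 dpf replicates 1, 2 and 3, and 5 without 75% epiboly replicate 1 or 2. Cbx7a, a Polycomb subunit, had 50.5, 64.4 and 61.5 TPM at 1 dpf and was listed at 0 in all 3 libraries at 75% epiboly. Kmt5ab, a histone H4 methyltransferase gene, had 122, 135 and 114 TPM at 1 dpf, against 499, 625 and 227 TPM at 75% epiboly (-1.74 ± 0.37). Of 16 DNA methylation and Tet genes, 5 were higher and 3 lower, 2 and 3 under all 4 scalings, and 3 were higher without any 1 of the 1 dpf libraries. Dnmt3bb.2, a de novo methyltransferase, and uhrf1, a partner of the maintenance methyltransferase, had 16.3, 18.2 and 20.03 TPM and 5.33, 3.57 and 5.77 TPM at 1 dpf, against 45.6, 58.8 and 42.3 TPM and 26.1, 33.8 and 64.0 TPM at 75% epiboly. Tet3, which oxidizes methylcytosine, had 4.71, 3.97 and 4.01 TPM at 1 dpf and was listed at 0 in all 3 libraries at 75% epiboly.

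RNA regulators moved in both directions, with regulators of mRNA stability and translation among those that fell. Relative to the median gene, the list medians were -1.42 for RNA-binding translation regulators, -0.67 for spliceosome genes and -1.11 for mRNA decay genes. Those of the zinc finger and heat shock lists were -1.10 and -0.83. Among all genes 42.8% were higher and 11.1% lower. Of 57 RNA-binding translation regulators, 12 were higher and 20 lower, 5 and 20 under all 4 scalings (7 higher without 1 dpf replicate 1 or 3). Elavl1a, the HuR gene, had 32.9, 22.8 and 24.0 TPM at 1 dpf, against 156, 152 and 115 TPM at 75% epiboly (-2.37 ± 0.29, adjusted p = 0.000509). Larp1, a regulator of ribosomal protein mRNAs, had 1.02, 0.352 and 1.099 TPM at 1 dpf, against 97.4, 89.3 and 82.4 TPM at 75% epiboly (-5.66 ± 0.34). In the control-MO libraries larp1 had 6.004 and 11.1 TPM at 1 dpf, against 27.9 and 27.6 TPM at 75% epiboly, lower too, and the difference between the experiments was called (adjusted p = 0.00357). Of 54 spliceosome, snRNP and LSm genes, 21 were higher and 13 lower, 15 and 13 under all 4 scalings. The Sm protein gene snrpd2 had 1104, 949 and 977 TPM at 1 dpf, against 300.3, 292 and 268 TPM at 75% epiboly (1.81 ± 0.16), while the control-MO libraries had 311 and 259.9 TPM at 1 dpf, against 309.7 and 286 TPM at 75% epiboly. Of 59 mRNA decay and maternal clearance genes, 6 were higher and 17 lower, 4 and 17 under all 4 scalings (11 lower without 1 dpf replicate 2, and 10 and 11 higher without 75% epiboly replicates 1 and 3). Within the deadenylase complex that shortens mRNA tails, cnot7 had 28.8, 32.0 and 21.2 TPM at 1 dpf, against 4.01, 3.13 and 1.64 TPM at 75% epiboly (2.88 ± 0.39), and cnot2 had 5.35, 9.28 and 2.62 TPM at 1 dpf, against 66.0, 83.1 and 72.1 TPM at 75% epiboly (-3.59 ± 0.43). In the control-MO libraries cnot2 had 25.3 and 29.4 TPM at 1 dpf, against 27.0 and 24.8 TPM at 75% epiboly, and was not called (adjusted p = 0.826). Among 262 zinc finger znf genes, 37 were higher and 27 lower, 13 and 27 under all 4 scalings. Without 1 dpf replicates 1, 2 and 3 the zinc finger genes had 24 higher each, and 16 and 15 were lower without replicates 1 and 2. Of 40 heat shock chaperones, 15 were higher and 10 lower, 4 and 10 under all 4 scalings (9 higher without 1 dpf replicate 2 or 3, and 6 lower without 1 dpf replicate 1 or 3).

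Interferon and antigen presentation genes had the highest list median, 2.34 above the median gene. Of 21 tested, 15 were higher and 0 lower, 10 and 0 under all 4 scalings, and 4 of the 15 were listed at 0 in every 75% epiboly library. Irf7, an interferon regulatory factor, had 69.1, 93.7 and 98.4 TPM at 1 dpf, against 0, 0.294 and 0.0484 TPM at 75% epiboly (6.30 ± 0.35, adjusted p = 5.1e-05), and its partner gene irf9 had 91.9, 121 and 103 TPM at 1 dpf, against 0, 2.74 and 0.841 TPM at 75% epiboly (5.80 ± 0.50). Tapbp.1, tapasin of the MHC class I loading complex, had 89.6, 138 and 80.8 TPM at 1 dpf, against 9.03, 13.8 and 5.87 TPM at 75% epiboly (3.33 ± 0.40). All 3 genes were higher at 1 dpf in every library. Isg15, a ubiquitin-like interferon target, had 137, 602 and 577 TPM at 1 dpf, against 7.77, 25.3 and 81.2 TPM at 75% epiboly (3.77 ± 0.86, adjusted p = 0.00758), a call lost without 1 dpf replicate 3.

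Lists of other cell types were read beside their marker sums, because sorted fractions can carry other cells. Shares over all genes were 42.8% higher and 11.1% lower, and 23.4% and 11% under all 4 scalings. The share called higher lay below that of all genes in the neural, skin, endothelial, blood, yolk and notochord lists. Muscle genes were higher in 15 of 22 and lower in 0, 9 and 0 under all 4 scalings. Myl1, a fast muscle myosin light chain, had 23.4, 19.4 and 31.6 TPM at 1 dpf and was listed at 0 in all 3 libraries at 75% epiboly. The 4 muscle markers summed to 29.2, 12.8 and 24.8 TPM at 1 dpf, against 1.13, 2.23 and 1.31 TPM at 75% epiboly. The whole muscle list summed to 282, 169 and 264 TPM at 1 dpf, against 50.6, 31.2 and 301 TPM at 75% epiboly. Its sum in 75% epiboly replicate 3 was thus above that of every 1 dpf library. Neural and neural crest genes were higher in 13 of 35 and lower in 3, 9 and 3 under all 4 scalings. Fabp7a, a fatty acid binding protein of neural progenitors, had 369, 179 and 178 TPM at 1 dpf, against 0.313, 0.266 and 0.55 TPM at 75% epiboly (7.38 ± 0.39), and mitfa, the pigment cell regulator, had 10.5, 19.2 and 19.2 TPM at 1 dpf and was listed at 0 in all 3 libraries at 75% epiboly. The 4 neuronal markers summed to 58.0, 17.0 and 25.4 TPM at 1 dpf, against 1.18, 0.685 and 0 TPM at 75% epiboly. The skin and enveloping layer list had 4 of 31 higher and 0 lower (2 and 0), and 2 were lower without 1 dpf replicate 1 or 75% epiboly replicate 2, and 1 without 75% epiboly replicate 3. Krt4, a skin keratin, had 1243, 47.1 and 1.01 TPM at 1 dpf, against 25.0, 33.3 and 44.4 TPM at 75% epiboly and was not called. Collagens were higher in 12 of 16 and lower in 0 (3 and 0), endothelial genes in 4 of 11 and 0 (1 and 0; 2 higher without 1 dpf replicate 2), and blood genes in 1 of 8 and 1 (1 and 1). Blood genes had 2 higher without 1 dpf replicate 1, 3 without 75% epiboly replicate 1, 2 without replicate 2, and 2 higher and 2 lower without replicate 3. Of 13 endoderm, yolk and liver genes, 1 was higher and 4 lower (0 and 4), and 0 were higher without 1 dpf replicate 1. Of 9 lateral plate, kidney and heart genes, 4 were higher and 3 lower (3 and 3 under all 4 scalings, and 1 lower without 1 dpf replicate 1 or 3). Hand2 had 44.5, 24.8 and 14.5 TPM at 1 dpf and was listed at 0 in all 3 libraries at 75% epiboly. The whole list ran the other way, with a sum of 138, 89.8 and 77.1 TPM at 1 dpf, against 355, 809 and 882 TPM at 75% epiboly. Its median was -0.30 relative to the median gene. Of 16 notochord, hatching gland and floor plate genes, 3 were higher and 2 lower (2 and 2). Cd63, a vesicle membrane protein counted there as a hatching gland gene, had 609, 821 and 561 TPM at 1 dpf, against 15.3, 9.40 and 7.45 TPM at 75% epiboly (5.86 ± 0.33), high also in the 1 dpf libraries with hatching gland markers at or near 0. The part of other cells in these differences was not tested.

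The genes with the largest differences and an assigned symbol included others not yet described. Those higher included trappc2l, a vesicle tethering subunit, with 534, 602 and 448 TPM at 1 dpf, against 7.39, 0.425 and 0.323 TPM at 75% epiboly, and endouc, an endoribonuclease gene, with 213, 205 and 222 TPM at 1 dpf, against 0, 0.0561 and 1.99 TPM at 75% epiboly (7.71 ± 0.69 and 7.19 ± 0.47). Nupr1b, a stress-induced nuclear protein gene, had 159, 219 and 286 TPM at 1 dpf, against 3.48, 0 and 0 TPM at 75% epiboly (7.03 ± 0.62). Selenom, a selenoprotein, chchd7 and rgrb were listed at 0 in all 3 libraries at 75% epiboly, with 245, 182 and 263 TPM, 135, 122 and 123 TPM and 106, 111 and 109 TPM at 1 dpf. Those lower included h2af1al, an H2A histone gene, with 0.723, 5.32 and 2.98 TPM at 1 dpf, against 310.2, 148 and 109 TPM at 75% epiboly (-5.61 ± 0.58), and nnr with 2.09, 0.597 and 0 TPM at 1 dpf, against 23.0, 259 and 93.2 TPM at 75% epiboly (-5.62 ± 0.85). Among the most abundant genes, hmgb2b, a chromatin protein, had 5228, 5936 and 5866 TPM at 1 dpf, against 1508, 1580.2 and 1169 TPM at 75% epiboly (2.01 ± 0.14), and fthl27, a ferritin heavy chain gene whose name is shared by 2 gene IDs, had, for the more abundant of them, 2493, 2678 and 2757 TPM at 1 dpf, against 1098, 1170.5 and 1237 TPM at 75% epiboly (1.18 ± 0.12). Neither was called in the control-MO libraries (adjusted p = 0.467 and 0.951). There hmgb2b had 2187 and 1796 TPM at 1 dpf, against 1807 and 1621 TPM at 75% epiboly. This fthl27 ID had 1270 and 2311 TPM at 1 dpf, against 1753 and 1742 TPM at 75% epiboly. By a rule of at most 1 TPM in every library of one stage and at least 10 TPM in every library of the other, 366 genes were on at 1 dpf and 15 were off. Of the 366, 269 had an assigned symbol, and 218 were listed at 0 in all 3 libraries at 75% epiboly. A listed 0 may be a failed estimate, as said of cox6b1, which meets this rule. Every 75% epiboly library also had fewer genes above 0 TPM than any 1 dpf library. The part of either in these counts was not tested. Of the 15, 10 had an assigned symbol, among them spry1, cdx1a, eve1 and gata2a. Cdx1a, a posterior homeobox gene, had 0.71, 0.98 and 0 TPM at 1 dpf, against 18.4, 15.0 and 105 TPM at 75% epiboly.

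The same stage difference was measured in the control-MO PGCs, which share no library with the control PGCs. Nanos3, ddx4, dnd1, dazl, ca15b and tdrd7a were each lower in every control-MO library than in any control library of that stage. Ribosomal protein genes took 17.1% and 18.9% of control-MO TPM at 1 dpf, against 7.40%, 7.58% and 6.86% in control PGCs. The part of cell content in agreement or disagreement between the experiments was not tested. In the control-MO PGCs 5534 of 16567 genes were higher at 1 dpf (33.4%) and 1201 lower (7.25%), again by limma, and 2597 and 3050 after quantile normalization. Of the genes called in control PGCs, 3690 were also called higher, 52.1% of the control calls and 66.7% of the control-MO calls, and 622 were also called lower, 34.0% and 51.8%. Calls in the opposite direction numbered 43 of the genes higher and 53 of those lower in control PGCs. Of the called genes tested in both, 5841 of 6333 higher and 1376 of 1772 lower had the same sign in control-MO PGCs. The median gene was itself 0.86 higher at 1 dpf in control-MO PGCs, so a positive sign there is common among all genes. The share of all genes with each sign was not counted, so these same-sign counts do not measure replication. Tbx16 had 1.11 and 1.08 TPM at 1 dpf and 267 and 346 TPM at 75% epiboly there, pou5f3 had 1.15 and 0.521 TPM and 332 and 259.6 TPM, and henmt1 had 108 and 54.0 TPM and 4.58 and 2.95 TPM. These 3 kept the direction and an adjusted p under 0.05. The control-MO counts rest on 2 libraries per stage: 1164 higher and 38 lower were called without control-MO 1 dpf replicate 2, and 1420 and 53 without control-MO 1 dpf replicate 1. The difference between the experiments itself, control-MO minus control, was called above 0 for 480 of 16924 genes (2.84%) and below 0 for 511 (3.02%).

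**Figure D5:**
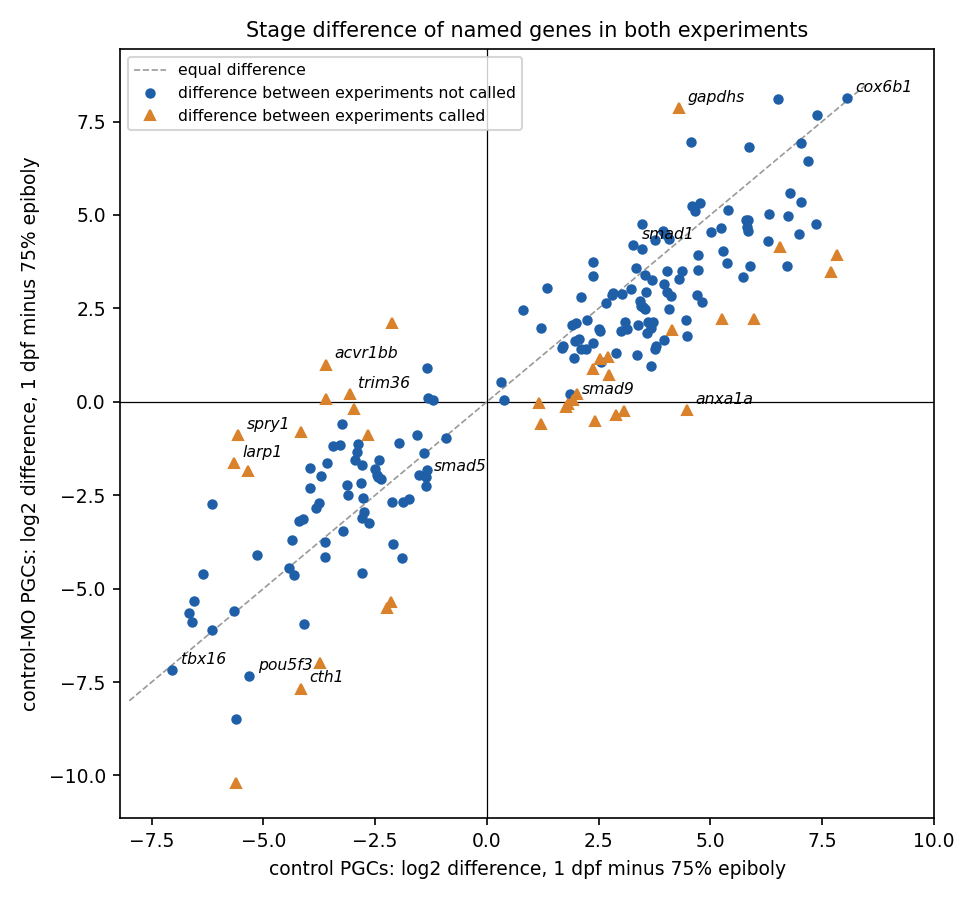
Log2 difference (1 dpf minus 75% epiboly) in control-MO PGCs (y axis) against that in control PGCs (x axis) for 197 genes. Some of these are not named in the text. Orange triangles mark genes whose difference between the experiments was itself called. Tbx16, pou5f3, cth1, smad5, smad1 and cox6b1 keep their direction, whereas smad9, trim36 and anxa1a lie near 0 and acvr1bb changes sign in the control-MO PGCs. The genes were partly chosen for the stability of their calls.

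The cKO PGCs, deposited beside the control PGCs, had 3 libraries at each stage. The targeted gene smad1 had 16.4, 12.5 and 11.7 TPM at 1 dpf and 2.68, 1.11 and 5.09 TPM at 75% epiboly in the cKO. In the control it had 140.0, 140.0 and 134 TPM at 1 dpf and 9.68, 13.5 and 17.9 TPM at 75% epiboly. For the difference of the stage changes, cKO minus control, limma called 0 of 16567 genes above 0 and 0 below 0 (0% each), with 628 genes at an unadjusted p under 0.05 and a smallest adjusted p of 0.9998. The 628 were a share below 0.05 of the genes tested, no more than that threshold is expected to pass where no gene differs. A test that misses the threshold does not show that the stage change was alike in the cKO, and in data simulated for this comparison the same test missed most of the changed genes. There were 2 and 3 calls above 0 without cKO 1 dpf replicates 1 and 3, and 1 below 0 without control 1 dpf replicate 1 or 3 or control 75% epiboly replicate 1. The 6 genes with the smallest p for this difference were myl13, bicdl2, myl10, fbxo16, pitx3 and scn3b. Of these, bicdl2 and fbxo16 passed the minimum of 1 TPM in the control libraries, and neither was called between the stages there.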

How the data were processed

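Primordial germ cell mRNA was measured by RNA sequencing in 20 of the 24 samples, and 6 control libraries, 3 at 1 dpf and 3 at 75% epiboly, form the comparison. The authors deposited TPM, length-corrected shares of a library's transcripts, for 32520 features in 1 table per stage and experiment, joined here by gene ID. StringTie 2.2.1, the aligner STAR 2.7.10b and the build GRCz11 (danRer11) appear in the submitters' processing notes with no stated settings. Groups and replicate numbers came from the labels. Genes with a mean of at least 1 TPM were tested on log2(TPM + 1) with limma 3.58.1 (R 4.3.3, trend on). Benjamini-Hochberg adjustment ran over all genes, with a threshold of 0.05. The same test was run on simulated data, where most of the changed genes were missed in each comparison. Far fewer genes were changed there than were called between the stages, so that outcome does not give the share missed between the stages. Tables were prepared with Python 3.11.15, pandas 2.3.3 and numpy 2.4.6, and drawn with matplotlib 3.10.9. Alternatives covered the pseudocount (0.1), the filter (none, or a mean of 5 TPM), the trend, scaling, removal of ribosomal and mitochondrial or abundant clone-named features, a replicate block, pooling the spread over 12 libraries, and leaving out each library.

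The members and all 50 gene lists were chosen with earlier results of these data known. The text could name the 12 genes per direction with the largest differences and no overlap, the up to 4 members of each list with the smallest p and the up to 3 with the highest mean, the 8 most abundant genes per stage, smad1, smad5, smad9 and the markers, the 6 genes with the smallest p in each difference between experiments, and the 10 highest switched genes per direction. Examples among them were picked with their values known, and genes outside the rule are marked. Of the features, 896 have no name and 533 share one. Replicate numbers paired no control libraries across stages (correlations of deviations -0.0018, -0.0055 and -0.0149), but cKO and control libraries of the same number and stage deviated together (0.105 to 0.417), and the block left that comparison at 0 calls. The amplicon libraries, the smad1 morphants and sequences were not analysed here.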

Additional observations from a re-analysis of the deposited data

Results flagged for a closer look

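All results singled out by a test of a difference between groups concern the same contrast in another set of PGCs: the stage difference in control-MO PGCs minus that in control PGCs, by limma with adjusted p under 0.05. It was above 0 for 480 genes and below 0 for 511. All values below are on the log2(TPM + 1) scale. Those of genes listed at 0 at a stage depend on the pseudocount and are no bound.

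The features with the smallest p included abundant clone-named ones that fell less in control-MO PGCs. AL935186.10 had 25409 and 26011 TPM at 1 dpf and 82405 and 73082 TPM at 75% epiboly in the control-MO PGCs, and 1057, 529 and 555 TPM at 1 dpf and 61464, 86440.2 and 115665 TPM at 75% epiboly in the control PGCs, a difference of 5.38. The others were AL935186.2 at 6.25, CT583728.14 at 4.68, CT583728.27 at 4.79 and CT583728.25 at 4.75. Hbbe3, an embryonic beta globin gene of red blood cells, differed by 11.06, with 3546 and 2298 TPM at 1 dpf and 2.298 and 0 TPM at 75% epiboly in the control-MO PGCs. In the control libraries hbbe3 did not reach a mean of 1 TPM, and red blood cell markers summed to at most 4.24 TPM.

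Among genes named in the report, in the plot of both experiments or in the gene lists, the difference was above 0 for spry1 (4.68), acvr1bb (4.60), hoxb13a (4.23), larp1 (4.02), cnot2 (3.66), gapdhs (3.56), h3f3d (3.49), smad4a (3.35), the ubiquitin ligase gene trim36 (3.29), the RNA-binding gene rc3h1a (2.77) and the nucleolar gene nop14 (1.77). Hoxb13a reversed: it was called lower at 1 dpf in control PGCs and higher in control-MO PGCs. For gapdhs this was a larger rise, with 384 and 650.1 TPM at 1 dpf and 0.823 and 1.54 TPM at 75% epiboly in the control-MO PGCs.

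The difference was below 0 in 2 ways. The stage fall was larger in control-MO PGCs for h2af1al (-4.58), cth1 (-3.51), ved (-3.28), ccna1 (-3.27) and buc (-3.21), of which h2af1al had 0.567 and 0.937 TPM at 1 dpf and 2208 and 1897 TPM at 75% epiboly there. It was below 0 for genes called higher at 1 dpf in control PGCs, among them anxa1a (-4.70), trappc2l (-4.24), selenom (-3.90), id2b (-3.76), bcl2l10 (-3.32), the decapping activator gene lsm1 (-3.25), mrpl53 (-3.05), the Sm protein gene snrpd3l (-2.93), dhrs3a (-2.40), the mitochondrial ribosomal gene mrpl35 (-2.23) and cdc42 (-2.01). Smaller such values were those of the cyclin G gene ccng1 (-1.91), smad9 (-1.89), snrpd2 (-1.88), h2az2a (-1.81), hmgb2b (-1.80), psmb7 (-1.51), mt-co1 (-1.50), mt-co3 (-1.39) and the more abundant of 2 gene IDs named fthl27 (-1.21). Both experiments were deposited as separate tables, so a difference between experiments and one between tables cannot be told apart.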

How the results depend on the processing

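The number of genes higher at 1 dpf in control PGCs was 4699 with a minimum mean of 5 TPM and 3905 after quantile normalization, and the number lower was 3956 after quantile normalization and 2796 after median-ratio scaling. Leaving out 1 library gave 5472 to 7107 higher and 1283 to 2310 lower, and the replicate block, for numbers that do not pair these libraries, 6938 and 1709. Of 100 counts in gene lists (50 in each direction), quantile normalization moved 52, median-ratio scaling 26, removal of clone-named features 19, a minimum of 5 TPM 19, no filter 8, no trend 5, the spread of 12 libraries 5, removal of ribosomal and mitochondrial features 5, the block 3 and the pseudocount 0 by over 1.5 times, and leaving out 1 library 8 to 22. The sign of ca15b turned to -0.20 after median-ratio scaling, -0.13 without clone-named features and -0.049 without 75% epiboly replicate 3 (up to 0.643 without replicate 2). That of dnd1 turned to -0.33 after quantile normalization, -0.24 after median-ratio scaling, -0.17 without clone-named features and -0.34 without 75% epiboly replicate 3 (up to 0.766 without replicate 1), and that of nanos3 to -0.025 without 75% epiboly replicate 3 (up to 1.36 without replicate 2). None of these was called. Genes on at 1 dpf numbered 606 with limits of 0.5 and 5 TPM and 217 with limits of 2 and 20 TPM (417 to 495 without 1 library). Genes off numbered 25 after median-ratio scaling (21 to 24 without 1 library). In control-MO PGCs, 3203 genes were higher with a minimum of 5 TPM and 2597 after quantile normalization (1164 to 6576 without 1 library), and 3050 lower after quantile normalization (38 to 1472). Control-MO minus control gave 774 above 0 after quantile normalization, 224 with the block and 116 to 964 without 1 library, and 138 below 0 with the block and 42 to 907 without 1 library. cKO minus control gave 0 to 3 above 0 and 0 to 1 below 0 without 1 library. The cause of these shifts was not tested. A planned share of promoters with motifs was not run because no promoter sequence was at hand. Unknown depth, listed zeros and 3 libraries per stage limit the precision.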

Other observations

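Immunoproteasome genes, which encode interferon-inducible catalytic subunits, set 1 dpf replicate 3 apart from the other 1 dpf libraries. They were chosen after their values were seen. Psmb12 had 119, 178 and 0 TPM at 1 dpf, against 0.923, 0 and 2.47 TPM at 75% epiboly. Psmb9a had 54.0, 73.0 and 0 TPM at 1 dpf, psmb8a had 23.3, 51.6 and 0 TPM and psmb13a had 18.5, 27.5 and 0 TPM, and at 75% epiboly these 3 genes had at most 2.79 TPM. All 4 were thus listed at 0 in 1 dpf replicate 3, where the interferon-related genes irf7, irf9 and isg15 had 98.4, 103 and 577 TPM. None of the 4 was called between the stages.

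The heat-inducible chaperone gene hsp70.3, also chosen after its values were seen, had 4.65, 0.562 and 2.71 TPM at 1 dpf, against 82.9, 443 and 28.9 TPM at 75% epiboly. It was highest in 75% epiboly replicate 2, and every 1 dpf library lay below every 75% epiboly library. Hatching enzyme gene he1.1 reached 3071 TPM in 1 dpf replicate 2 alone, and krt4 reached 1243 TPM in 1 dpf replicate 1 alone.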
